A study of Homo sapiens with 6 samples.

Results

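The 9 genes described here are the receptors EGFR, ERBB2 and ERBB3, the ligands AREG, EREG, HBEGF, TGFA and BTC, and the receptor inhibitor ERRFI1. They were taken by symbol from the deposited tables, where each symbol had a single gene identifier, out of 29889 genes with at least 1 count. All 9 were among the 15847 genes with enough counts to be tested. The data come from A549, a human lung adenocarcinoma cell line, transfected with a plasmid carrying CELF6 (CELF6-OE) or with the same pIRES-hrGFP-1a plasmid left empty (Control). Polyadenylated RNA was collected 48 h later, with 3 biological replicates per group and 6 libraries in all. The transfection was transient and lipid-based, and the share of cells that took up the plasmid is not given in the sources used here. CELF6, an RNA-binding protein that acts on splicing and mRNA stability, had an FPKM of 270.1, 294.9 and 172.3 in the CELF6-OE libraries and 0 counts in each Control library. With 3 counts as the limit that a count of 0 allows in each library, an FPKM of 0.0414, the mean of CELF6-OE was at least 5937-fold higher.

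Receptors of this family are tyrosine kinases at the cell surface that pair with each other when a ligand binds, and then signal through RAS and ERK, PI3K and AKT, and phospholipase C. EGFR is the founding member. ERBB2 has no known ligand of its own and acts as a partner, while ERBB3 has a weak kinase and is activated by neuregulins. The ligands are made as membrane-bound precursors and are released by proteases such as ADAM17. AREG and TGFA bind EGFR, while EREG, HBEGF and BTC bind EGFR and ERBB4. ERRFI1, also called MIG6, binds the kinase domain of the active receptors and shuts them off, and its own transcription is induced by their signalling. The family is known in lung adenocarcinoma for EGFR as a driver and drug target.

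CELF6-OE libraries held 33748328 to 35413404 counts on genes, Control libraries 36422617 to 37920700, and mitochondrial genes held 8.69% to 10.09% of the counts. Replicates differed by more than counting noise, with a chi-square over its degrees of freedom of at least 7.67 for every pair. The largest value was 29.3, for Control replicates 1 and 3. Of 10 epithelial markers listed, KRT7, KRT8 and KRT18 had mean Control FPKM of 1736, 2530 and 2334. The alveolar genes NKX2-1, SFTPB and SFTPC had 6 counts or fewer in every library. NAPSA, also listed, had 17 to 25 counts in CELF6-OE and 33 to 54 in Control (log2 fold change -0.86, adjusted p = 0.0536 in edgeR's test). These 10 markers summed to an FPKM of 5041 to 5794 with CELF6-OE, against 6178 to 7030 for Control, 4 of 7 tested markers fell and 0 rose, where 11.5% of all tested genes fell and 6.47% rose. The most changed was CDH1, encoding E-cadherin, with 539, 516 and 870 counts for CELF6-OE against 2003, 2201 and 2059 for Control (log2 fold change -1.62, adjusted p = 0.000105 in edgeR's test). KRT8, KRT18 and KRT19 fell by 0.47, 0.36 and 0.22 on the log2 scale, and the part of this difference in the results on the family was not tested. Of 12 markers of blood, stromal and endothelial cells, CD3E and COL1A2 were not analysed here and 3 were tested. The other 10 summed to an FPKM of 3.58 to 4.95 with CELF6-OE, against 3.46 to 4.16 for Control. Of the tested 3, the endothelial gene PECAM1 fell, from 11, 17 and 15 counts in Control to 3, 3 and 5, while the monocyte gene CD14 had 225 to 310 counts and the collagen gene COL1A1 56 to 107 without passing. The leukocyte gene PTPRC had at most 2 counts and the endothelial gene VWF at most 1, and the part of these markers in the results was not tested.

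EREG, AREG and BTC lie near each other on chromosome 4, and the 300 bases around each start are shown because these neighbours had different fold changes. The windows are from RefSeq on GRCh38.p14 and run from 250 bases before the annotated start to 50 bases from it on, on the strand of the gene. Capitals mark the motifs searched on either strand, which were the TATA box as TATAAA, the CCAAT box, the GC box as GGGCGG, the cAMP response element TGACGTCA and the AP-1 motif TGANTCA. The EREG window is chr4:74364895-74365194 on the plus strand, the AREG window is chr4:74444886-74445185 on the plus strand, and the BTC window is chr4:74794474-74794773 on the minus strand.
EREG: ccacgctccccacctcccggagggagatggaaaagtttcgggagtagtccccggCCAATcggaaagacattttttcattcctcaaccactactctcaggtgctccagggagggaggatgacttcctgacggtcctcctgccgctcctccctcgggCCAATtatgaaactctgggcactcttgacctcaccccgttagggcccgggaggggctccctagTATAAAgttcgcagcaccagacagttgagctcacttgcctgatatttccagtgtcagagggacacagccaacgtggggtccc
AREG: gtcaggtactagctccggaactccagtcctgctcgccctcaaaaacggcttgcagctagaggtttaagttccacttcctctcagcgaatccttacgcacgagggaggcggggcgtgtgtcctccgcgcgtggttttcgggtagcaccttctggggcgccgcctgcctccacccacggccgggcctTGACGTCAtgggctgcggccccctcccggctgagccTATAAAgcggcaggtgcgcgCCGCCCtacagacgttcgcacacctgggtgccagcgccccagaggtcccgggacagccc
BTC: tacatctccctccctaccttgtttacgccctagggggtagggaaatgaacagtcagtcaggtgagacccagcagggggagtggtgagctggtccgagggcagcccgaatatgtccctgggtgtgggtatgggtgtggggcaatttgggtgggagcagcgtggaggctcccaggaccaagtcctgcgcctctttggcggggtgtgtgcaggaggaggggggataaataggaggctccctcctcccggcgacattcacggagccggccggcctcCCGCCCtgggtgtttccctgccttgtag

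EREG held TATAAA starting 32 bases before the annotated start and CCAAT at 196 and 95 bases before it. AREG held TATAAA 29 bases before the start, TGACGTCA 65 bases before it and a GC box 9 bases before it, read on the opposite strand. BTC held a GC box 22 bases past the start and none of the other motifs. Over all 35116 windows of this length, 11.5% held TATAAA, 34.6% CCAAT, 45% the GC box, 1.85% TGACGTCA, and 7.71% TGANTCA. Of the 9 genes 8 had a window, 10 windows in all, and ERBB3 had none. Among these 10 windows, TATAAA was found in 3 (AREG, EGFR and EREG) and CCAAT in 3 (ERBB2, EREG and ERRFI1). The GC box was found in 6, TGANTCA in 2 (EGFR and ERBB2) and TGACGTCA in that of AREG. EGFR had a window at its annotated start, chr7:55018767-55019066, and another further inside the gene, chr7:55109589-55109888. Its TATAAA and TGANTCA matches were all in the inner window. Of the motifs searched, the window at the annotated EGFR start held the GC box alone. The interferon-stimulated response element was found in 0 of the 10 and in 3.57% of all windows. These matches describe letters and not binding.

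In Control, AREG was the most abundant of the 9 transcripts, with an FPKM (mapped fragments scaled for transcript length and library size) of 83.6 ± 2.69 (SD, n = 3 for each mean here). It ranked above 95% of the tested genes. ERRFI1 at 32.9 ± 2.84, EREG at 22.7 ± 5.45, ERBB2 at 9.78 ± 0.47, EGFR at 5.94 ± 0.43 and HBEGF at 3.64 ± 0.11 followed, and no neighbours in this order overlapped. TGFA at 2.24 ± 0.13, ERBB3 at 2.03 ± 0.74 and BTC at 1.79 ± 0.25 closed the order, and each overlapped the next. In CELF6-OE, EREG stood above ERRFI1, at 27.4 ± 4.33 against 21.5 ± 2.03, and the ranks of the other 7 genes were as in Control. There, the neighbours ERBB2 and EGFR, HBEGF and TGFA, and ERBB3 and BTC overlapped. The plot of FPKM by library shows these levels.

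**Figure D1:**
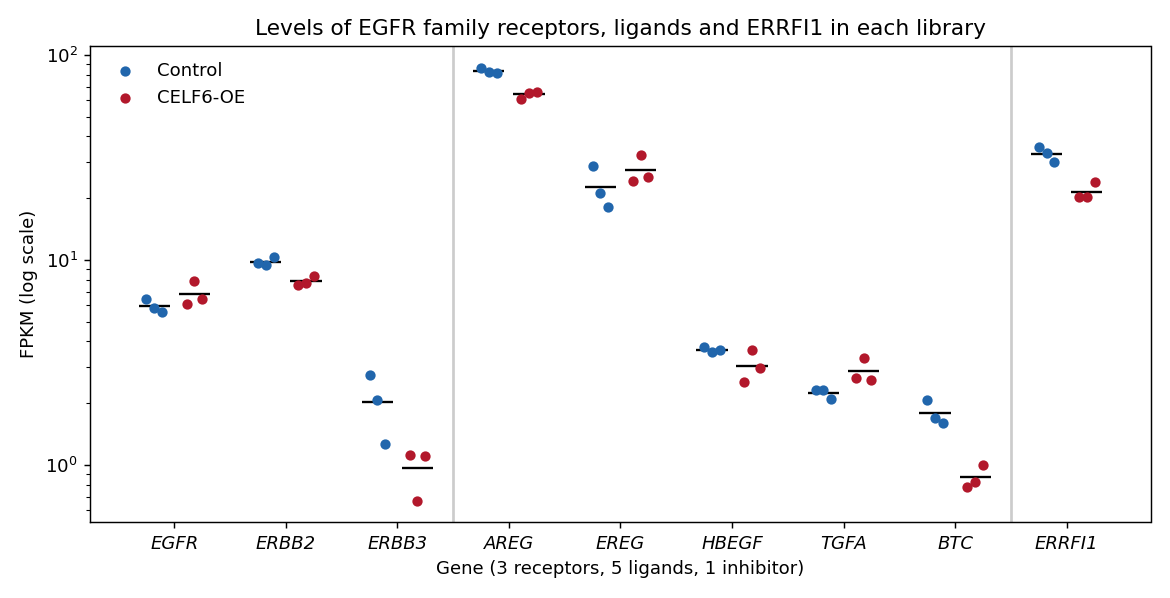
FPKM (log axis) of the 9 genes in each library, with Control in blue and CELF6-OE in red, 3 points per group and a black line at the mean. The levels span from about 1 FPKM for ERBB3 and BTC in CELF6-OE to 83.6 for AREG in Control, and the groups of EGFR, EREG and HBEGF overlap.

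To ask which of these genes changed with CELF6-OE, the quasi-likelihood test of edgeR was run on all 15847 genes. ERBB2, ERBB3, AREG, BTC and ERRFI1 fell, with a Benjamini-Hochberg adjusted p under 0.05, and none of the 9 rose by this rule. That is 5 of 9 lower, where 11.5% of all tested genes were called lower and 6.47% higher. Without CELF6-OE replicate 2, 3 of the 9 fell. By the stricter size rule, p under 0.01 with 1.5-fold or more, ERBB3, BTC and ERRFI1 were down-regulated, 3 of 9, against 5.91% of all genes down-regulated and 1.36% up-regulated. In library-scaled counts (CPM, counts divided by the scaled library size), every CELF6-OE value was under every Control value for 6 of the 9 genes and over every one for TGFA, where 20% of all genes lay wholly below and 17.9% wholly above. The median log2 fold change of the 9 genes was -0.34, against 0.011 over all tested genes. In RNA from whole cultures, fewer cells of a type and less RNA per cell cannot be told apart.

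**Figure D2:**
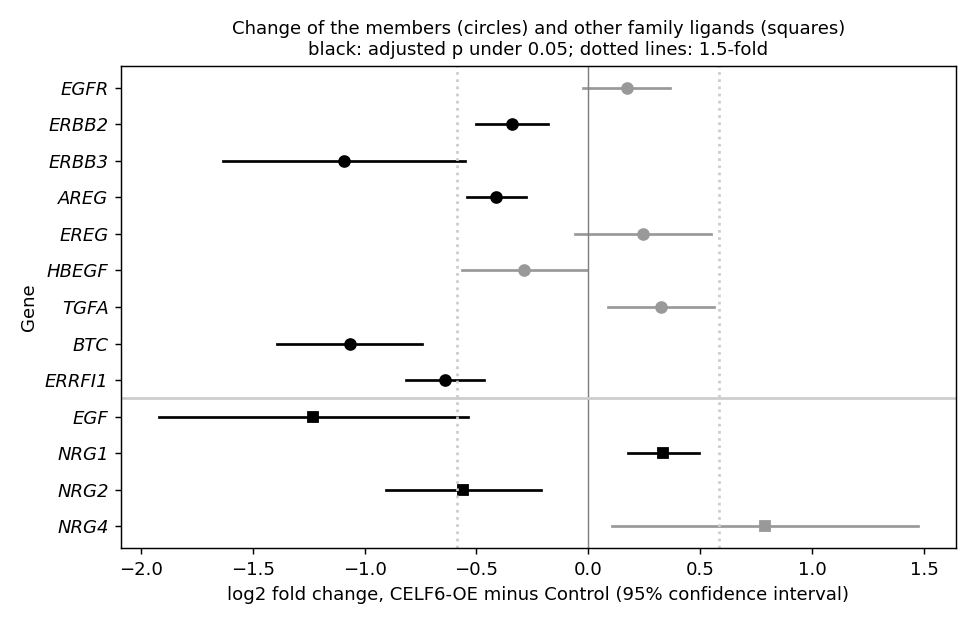
Log2 fold change (CELF6-OE minus Control, x axis) with its 95% confidence interval for the 9 genes (circles) and for EGF, NRG1, NRG2 and NRG4 (squares), black where the adjusted p was under 0.05 and grey otherwise. ERBB3 and BTC lie near -1, ERRFI1 at -0.64, and EGFR, EREG and TGFA lie above 0 without passing the threshold.

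Among the receptors, EGFR (chromosome 7, 55019017 to 55211628 on the plus strand of GRCh38) had an FPKM of 6.11, 7.91 and 6.48 in the CELF6-OE libraries, listed here and hereafter by replicate number, and 6.42, 5.81 and 5.59 in the Control libraries. The groups overlapped, and CELF6-OE replicate 2 was the highest library. The change of EGFR was 0.17 on the log2 scale (standard error 0.088, 95% confidence interval -0.022 to 0.37), with an adjusted p of 0.202 in edgeR's quasi-likelihood test. Without CELF6-OE replicate 2 the change was 0.058, with an adjusted p of 0.688. The antisense gene EGFR-AS1 inside it had at most 1 count.

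ERBB2, the ligandless partner receptor on chromosome 17 from 39687914 to 39730426, had an FPKM of 7.56, 7.74 and 8.36 in CELF6-OE and 9.61, 9.41 and 10.31 in Control. Every CELF6-OE library lay below every Control library. It fell by 0.34 on the log2 scale (standard error 0.074, adjusted p = 0.00939 in edgeR's quasi-likelihood test), a level of 0.789 times that of Control. Leaving out CELF6-OE replicate 1 or 2 raised the adjusted p to 0.0594 or 0.0551. MIEN1 and PGAP3 overlap ERBB2 on the opposite strand with 3238 to 3870 and 293 to 406 counts. The library kit keeps strand, but the strand setting of the counting is not given in the sources used here. The log2 fold change was -0.078 for MIEN1 and -0.26 for PGAP3, with adjusted p of 0.457 and 0.0869 in edgeR's quasi-likelihood test.

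ERBB3, the neuregulin receptor on chromosome 12 from 56076799 to 56103505, had an FPKM of 1.12, 0.67 and 1.11 in CELF6-OE and 2.74, 2.07 and 1.27 in Control. Relative to its mean this was the widest spread among the 9 genes in Control, and Control replicate 3 lay closest to CELF6-OE. The log2 fold change of ERBB3 was -1.09 (standard error 0.246, 95% confidence interval -1.63 to -0.55), with an adjusted p of 0.0115 in edgeR's quasi-likelihood test. The adjusted p was 0.0518 without CELF6-OE replicate 2, 0.0544 with the robust form of the test, and 0.151 and 0.168 with limma on FPKM. RP11-603J24.9, an annotated readthrough gene, overlaps the end of ERBB3 on the same strand and had 3369 to 4002 counts, so counting could have divided reads of this end between the 2 genes.

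ERBB4, the remaining receptor of the family, had at most 2 counts in any library and was not tested. By share of the summed FPKM of EGFR, ERBB2 and ERBB3, EGFR made up 41.3%, 48.5% and 40.6% in CELF6-OE and 34.2%, 33.6% and 32.6% in Control. ERBB3 made up 7.6%, 4.1% and 7.0% in CELF6-OE and 14.6%, 12% and 7.4% in Control. The EGFR share was thus higher in each CELF6-OE library than in any Control library, while the ERBB3 shares overlapped. A share depends on every receptor in the sum. In the test of single genes ERBB2 and ERBB3 fell, and EGFR did not pass. How often such shares fail to overlap for other genes was not computed.

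Of the ligands, AREG (amphiregulin, chromosome 4, 74445136 to 74455005) had an FPKM of 60.8, 65.4 and 66.2 in CELF6-OE and 86.6, 82.7 and 81.5 in Control. The libraries of each group lay close together, and the groups were apart. AREG fell by 0.41 on the log2 scale (standard error 0.059, 95% confidence interval -0.54 to -0.28), with an adjusted p of 0.000826 in edgeR's quasi-likelihood test and at most 0.0129 over 21 alternatives. The decrease stayed under 1.5-fold in all of them.

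BTC (betacellulin, chromosome 4, 74744759 to 74794523 on the minus strand) had an FPKM of 0.78, 0.83 and 1.0 in CELF6-OE and 2.07, 1.69 and 1.6 in Control, from 80 to 99 and 178 to 221 counts. Every CELF6-OE library held less than any Control library. The log2 fold change of BTC was -1.07 (standard error 0.147, 95% confidence interval -1.39 to -0.74), with an adjusted p of 0.000615 by the same edgeR fit and at most 0.0258 over the alternatives.

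EREG (epiregulin, chromosome 4, 74365145 to 74388749) had an FPKM of 24.4, 32.3 and 25.4 in CELF6-OE and 28.8, 21.2 and 18.2 in Control. Control replicate 1 lay inside the range of CELF6-OE, and the groups overlapped. The log2 fold change of EREG was 0.24 (standard error 0.138, 95% confidence interval -0.058 to 0.55), with an adjusted p of 0.242 in edgeR's quasi-likelihood test. This value depended on single libraries. Without Control replicate 1 the log2 fold change was 0.42 and the adjusted p 0.00663, without CELF6-OE replicate 2 they were 0.11 and 0.666, and without Control replicate 3 they were 0.12 and 0.496 in the same edgeR test.

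HBEGF, the heparin-binding ligand on chromosome 5 (140332843 to 140346603), had an FPKM of 2.54, 3.65 and 2.97 in CELF6-OE and 3.76, 3.55 and 3.62 in Control. The groups overlapped in FPKM, through CELF6-OE replicate 2, and not in CPM. Its log2 fold change was -0.29 (standard error 0.128, 95% confidence interval -0.57 to -0.005), with an adjusted p of 0.145 in edgeR's quasi-likelihood test. The value for HBEGF was -0.17 without CELF6-OE replicate 1 and -0.43 without CELF6-OE replicate 2. TGFA, encoding transforming growth factor alpha on chromosome 2 (70447284 to 70554193), had an FPKM of 2.65, 3.32 and 2.6 in CELF6-OE and 2.31, 2.32 and 2.09 in Control. The CELF6-OE range began above the end of the Control range. For TGFA the log2 change was 0.32 (standard error 0.108, 95% confidence interval 0.086 to 0.56), and its adjusted p of 0.0611 in edgeR's quasi-likelihood test missed the threshold. The adjusted p of TGFA was 0.0379 to 0.0455 under 4 of the 21 alternatives and at most 0.266, where CELF6-OE replicate 2 was left out and the log2 change was 0.21.

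The summed FPKM of the 5 ligands was 91.2, 105.5 and 98.2 in CELF6-OE and 123.5, 111.4 and 107.0 in Control, with AREG and EREG holding most of it. AREG made up 66.7%, 62.0% and 67.4% of this sum in CELF6-OE and 70.1%, 74.2% and 76.2% in Control. EREG made up 26.7%, 30.6% and 25.9% in CELF6-OE and 23.3%, 19.0% and 17.0% in Control. Neither set of shares overlapped between the groups. Since both genes together held most of the sum, a lower share of AREG goes with a higher share of EREG. How often such shares fail to overlap for other genes was not computed. The ligand sum divided by the receptor sum was 6.26 ± 0.18 in CELF6-OE and 6.42 ± 0.18 in Control (SD, n = 3 each), a difference within the spread of the replicates. A sum of transcripts says nothing of released protein.

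**Figure D3:**
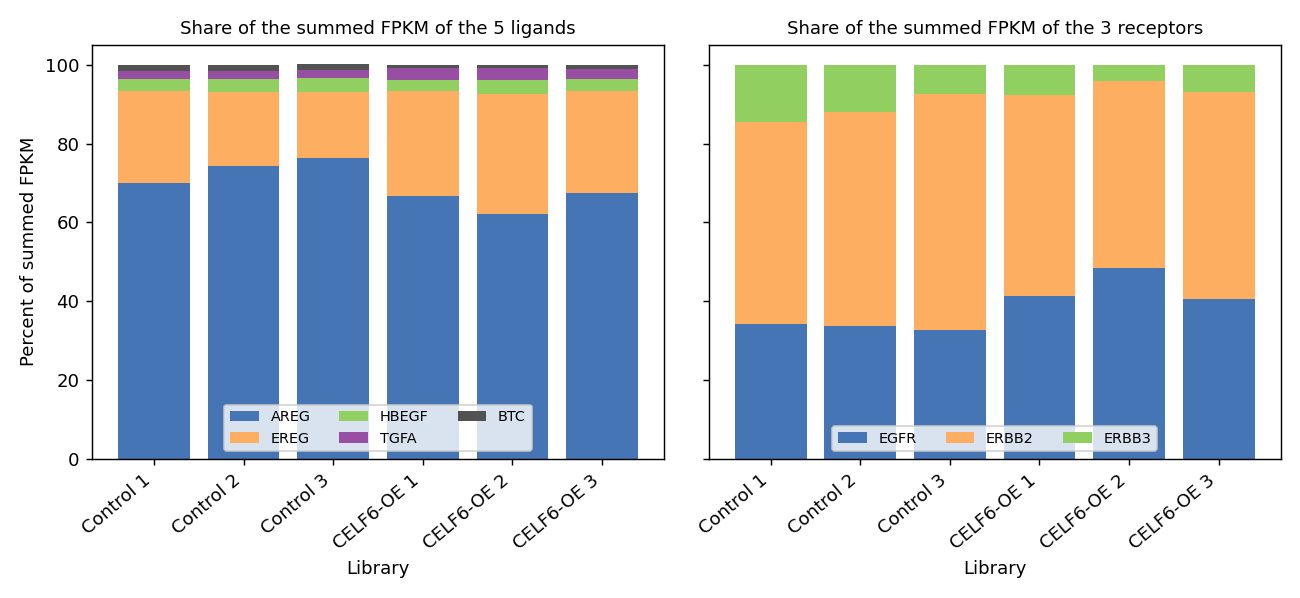
Percent of the summed FPKM held by each of 5 ligands (left) and 3 receptors (right) in each library, as stacked bars. AREG holds 62.0% to 67.4% of the ligand sum in CELF6-OE and 70.1% to 76.2% in Control, and EGFR holds a larger share of the receptor sum in CELF6-OE.

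ERRFI1, the feedback inhibitor on chromosome 1 (8004404 to 8026309 on the minus strand), had an FPKM of 20.4, 20.3 and 23.9 in CELF6-OE and 35.6, 33.2 and 29.9 in Control. The groups were well apart. ERRFI1 had the smallest p of the 9 genes and fell by 0.64 on the log2 scale (standard error 0.079, 95% confidence interval -0.81 to -0.47), with an adjusted p of 0.000265 in edgeR's quasi-likelihood test and at most 0.0206 over 21 alternatives. It was down-regulated by the rule of 1.5-fold under all 21.

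Whether a gene changed differently from EGFR was asked within each library, by the log2 ratio of its FPKM to that of EGFR. The ratio of AREG to EGFR was 9.48 in CELF6-OE and 14.1 in Control, and that of ERRFI1 to EGFR was 3.19 and 5.53. The difference in the mean log2 ratio was -0.58 for AREG, -0.81 for ERRFI1, -0.51 for ERBB2, -1.23 for ERBB3, -1.23 for BTC and -0.47 for HBEGF. The log2 ratio of TGFA to EGFR was higher in CELF6-OE by 0.15. The groups did not overlap for these 7 ratios (exact permutation test, two-sided, p = 0.1, which 3 libraries against 3 cannot go below). After Benjamini-Hochberg adjustment over 11 ratios this exact p was 0.122. These ratios share the EGFR value of each library, and the share of all genes without overlap in such a ratio was not computed. For EREG the log2 ratio differed by 0.089 with p = 0.7 in the same exact test, and EREG and EGFR were each highest in CELF6-OE replicate 2 and lowest in Control replicate 3.

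The 3 ligand genes of chromosome 4 gave different values at short distances. The starts of EREG and AREG are 79991 bp apart and those of AREG and BTC 349387 bp. The log2 ratio of AREG to EREG was 1.32, 1.02 and 1.38 in CELF6-OE and 1.59, 1.97 and 2.16 in Control. That is lower by 0.67 in CELF6-OE, without overlap (p = 0.1 in the same exact permutation test, its lower limit). This ratio was chosen after the data were seen, as were those of BTC to AREG, lower by 0.65 without overlap (p = 0.1), and of ERBB3 to ERBB2, lower by 0.73 with overlap (p = 0.3, exact permutation test). PARM1, the next tested gene past BTC, had a log2 fold change of 0.099 and an adjusted p of 0.768 in edgeR's quasi-likelihood test. EPGN, another ligand gene, was not analysed here. The other counted neighbours, RP11-629B11.5 and AC142293.3, had at most 9 counts in a library and were not tested.

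**Figure D4:**
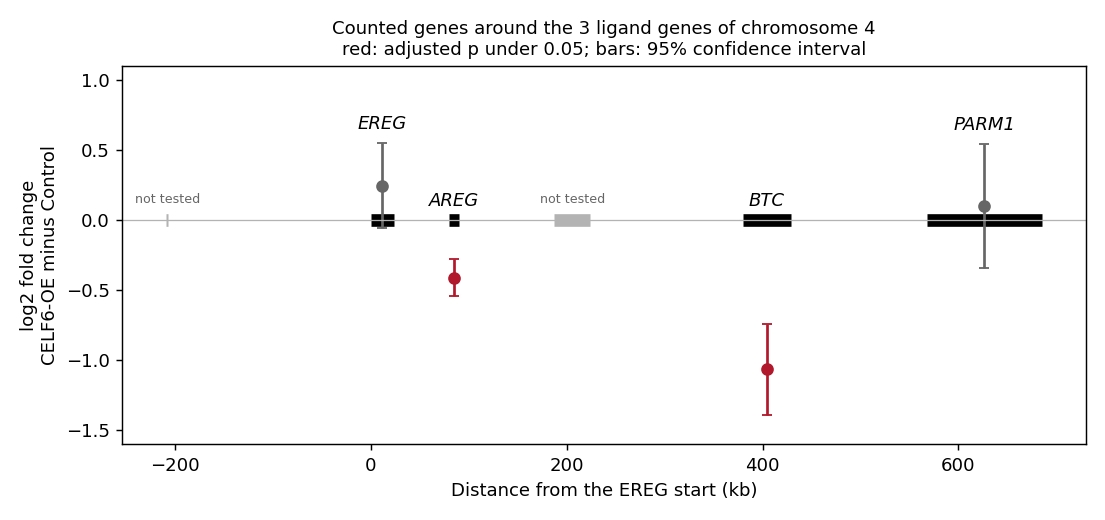
Log2 fold change (y axis) with its 95% confidence interval for the tested genes around EREG, AREG and BTC, against the distance from the EREG start in kb (x axis); thick bars mark the genes, grey where not tested. AREG and BTC lie below 0 and the intervals of EREG and PARM1 cover 0.

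Another 4 ligands of the family were tested. NRG1, a neuregulin that binds ERBB3 and ERBB4, gave counts of 4489, 5373 and 4445 with CELF6-OE, against 3830, 3954 and 4131 for Control. It rose by 0.33 on the log2 scale (standard error 0.072, adjusted p = 0.00885 in edgeR's quasi-likelihood test), and its adjusted p was 0.0574 without CELF6-OE replicate 2 and 0.0572 without Control replicate 2. NRG2 fell by 0.56 (adjusted p = 0.032 in edgeR's test, with 98 to 146 counts in CELF6-OE and 172 to 200 in Control), and passed the threshold in 15 of 21 alternatives. EGF, the ligand that gave the receptor its name, was close to the limit of detection, with 6 to 11 counts in CELF6-OE and 21 to 24 in Control. EGF had a log2 fold change of -1.23 (adjusted p = 0.0211 in edgeR's test), and 13 of 20 alternatives passed. NRG4 had 25 to 40 counts in CELF6-OE and 12 to 23 in Control, with a log2 fold change of 0.79 and an adjusted p of 0.103 in edgeR's test. NRG3 was not analysed here. Over the 9 ligands tested, 4 fell, 1 rose and 4 did not pass, where 11.5% of all tested genes fell and 6.47% rose.

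Lists of pathway genes were compiled from general knowledge with earlier results of these data known, so their counts are descriptions. The counts stand against 11.5% of all tested genes called lower and 6.47% higher. Among 10 genes of ligand processing, 3 fell and 0 rose, with a median log2 fold change of -0.24. RHBDL2, a rhomboid protease, had 26 to 31 counts in CELF6-OE and 54 to 92 in Control, and fell by 1.3 on the log2 scale (adjusted p = 0.00353 in edgeR's quasi-likelihood test). RHBDF2, an inactive rhomboid needed for ADAM17, fell by 0.44 and the protease ADAM15 by 0.33, which are named after their values were seen. ADAM17, the main sheddase, had a log2 fold change of 0.033. Without Control replicate 1, 5 genes of the list passed.

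Of the 23 tested genes of receptor attenuation and trafficking, ERRFI1 and LRIG1 fell, 0 rose and 21 did not pass, where 11.5% of all tested genes fell. LRIG1, a membrane protein that limits receptor levels, gave counts of 102, 145 and 133 with CELF6-OE, against 252, 226 and 197 for Control, with every CELF6-OE library below every Control library. Its log2 fold change was -0.76 (standard error 0.151, adjusted p = 0.00598 in edgeR's quasi-likelihood test). The median of this list was -0.020, and 5 of its genes passed without Control replicate 1.

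In the list of adaptors and of RAS-ERK, PI3K-AKT and phospholipase C signalling, 5 of 39 tested genes rose and 3 fell, where 6.47% of all tested genes rose and 11.5% fell, and the median was 0.019. STAT5A, a transcription factor, gave counts of 70, 80 and 82 with CELF6-OE, against 190, 191 and 201 for Control, and fell by 1.25 on the log2 scale (adjusted p = 0.000109 in edgeR's quasi-likelihood test). It was the single gene of this list to pass p under 0.01 with 1.5-fold. PTPN11, HRAS, NRAS and PRKCA, named after their values were seen, rose by 0.24 to 0.43 on the log2 scale. GRB7 and PLCG2, named in the same way, were the other genes that fell, by 0.43 and 0.41. With the replicate number as a block, 4 genes of this list passed in place of 8. The count was 19 without Control replicate 1, and 4, 2, 5 and 3 without CELF6-OE replicate 1, 2 or 3 or Control replicate 2.

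Among 19 transcripts known to respond to ERK, 2 rose, 2 fell and 15 did not pass, against 6.47% higher and 11.5% lower over all tested genes, and the median was 0.023. FOS, an immediate early gene, gave counts of 189, 136 and 218 with CELF6-OE, against 391, 305 and 288 for Control, and fell by 0.78 on the log2 scale (adjusted p = 0.0138 in edgeR's quasi-likelihood test). DUSP5, a phosphatase of ERK, fell by 0.53, while FOSL1 rose by 0.56 and PHLDA2 by 0.35, all 3 named after their values were seen. Without CELF6-OE replicate 2 or Control replicate 2, 2 genes of the list passed.

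**Figure D5:**
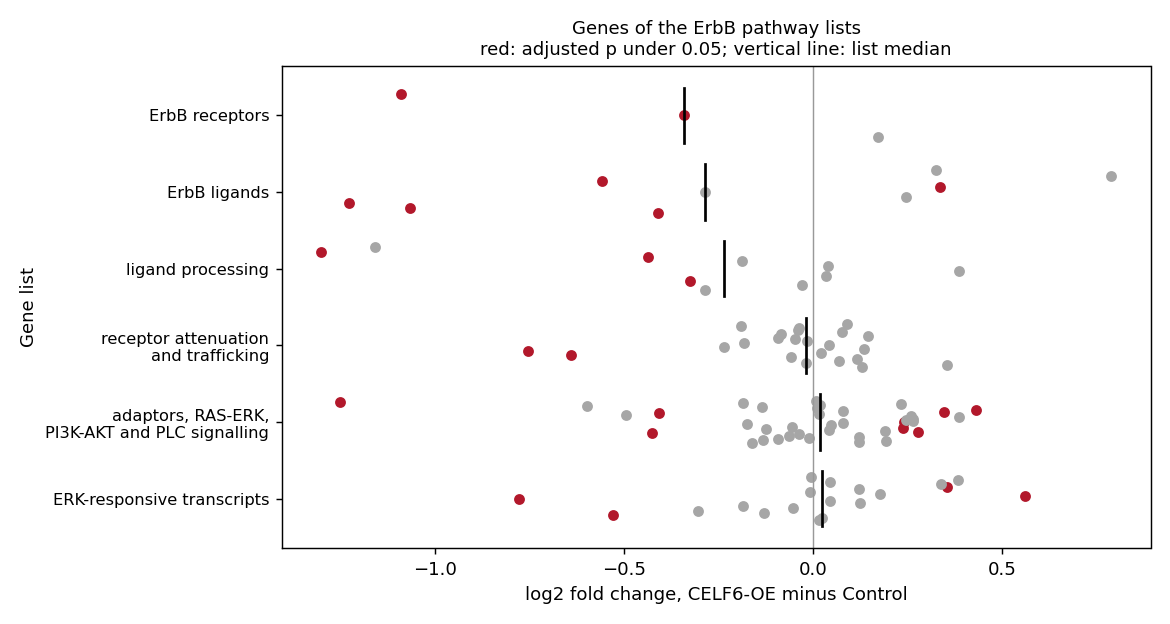
Log2 fold change (x axis) of each tested gene in 6 lists of the pathway (rows), red where the adjusted p was under 0.05, with the list median as a vertical line. The medians of the last 3 lists lie close to 0, and the red points of receptors and of ligand processing lie below 0.

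The genes whose scaled levels, as log2 of CPM plus 0.5, ran most like those of ERRFI1 over the 6 libraries were DUSP16, TLR3, HIST1H2AC, SLC35G2 and LAP3, with Pearson r of 0.9981 to 0.9996. All 5 fell as well, by 0.43 to 1.63 on the log2 scale, and the 6 points share the difference between groups. Among the 9 genes themselves, r with ERRFI1 was 0.99 for BTC and 0.97 for AREG. For EGFR the most alike genes were NUP98, RBM20, USP40, FAM60A and HMGA2, with r of 0.9827 to 0.9872. None of these 5 passed the test between groups, and the same edgeR quasi-likelihood fit gave them adjusted p of 0.149 to 0.647. Of the family, TGFA (r = 0.90) and EREG (r = 0.86) ran most like EGFR. The r values are descriptions over 6 libraries. Genes picked for a high r tend to share the group pattern of the gene they were matched to.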

How the data were processed

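RNA-seq of 3 CELF6-OE and 3 Control libraries was used. The authors trimmed the reads, aligned them to GRCh38 with TopHat2 and deposited read counts per gene of uniquely located reads, without normalization, and FPKM values rounded to 2 decimals. How reads were counted, with which strand setting and annotation, is not given in the sources used here. Positions are from GENCODE v44 on GRCh38.

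Counts were scaled with TMM and tested with edgeR 4.0.16 (R 4.3.3, glmQLFit and glmQLFTest) on the 15847 genes kept by filterByExpr (minimum count 10), with Benjamini-Hochberg adjustment over all of them and no replicate block. This filter was used because without it the prior degrees of freedom were infinite, against 7.15 with it. The prior count was 0.125, and standard errors are the log2 fold change over the root of F. A call was an adjusted p under 0.05, or p under 0.01 with 1.5-fold as in the study. FPKM served for levels, shares and ratios. The ratios were compared by exact permutation tests, while the order of FPKM levels and the shares were compared by overlap of libraries, without a test.

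The members and lists were chosen with earlier results of these data known. Named genes were the members, their family, pathway genes with p under 0.01 and 1.5-fold, counted neighbours on chromosome 4 and the 5 genes most like EGFR and the member with the smallest p. Other pathway genes and markers were named after their values were seen. The ratios AREG to EREG, ERBB3 to ERBB2 and BTC to AREG and the lengths from GENCODE were added after seeing the data. The 95% confidence intervals come from the quasi-likelihood fit and so include the spread between replicates. The limit of 3 counts set for a count of 0 covers counting error only. The script was tested on simulated counts. Alternatives were other scalings, filters, tests (DESeq2 1.42.0 and limma 3.58.1 among them), priors, a replicate block, removal of CELF6 and leaving out each library. A gene of the adaptor and signalling list is counted but not reported by name here.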

Additional observations from a re-analysis of the deposited data

How the results depend on the processing

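All 9 genes kept the sign of their log2 fold change under the 21 alternatives, and AREG, BTC and ERRFI1 passed an adjusted p under 0.05 in each. The count of these genes called higher by adjusted p was 1 with upper-quartile scaling, the likelihood ratio test or edgeR's exact test, and 2 without the filter. With limma on log2(FPKM + 1), 1 of them passed p under 0.01 and 1.5-fold as lower. Over all genes, limma on log2(FPKM + 1) called 535 higher and 987 lower by adjusted p, and 57 higher and 396 lower by p and fold, and on log2(FPKM + 0.1) it called 528 higher and 974 lower by adjusted p. Both limma fits called 3 genes of the adaptor list and 2 of the ERK list. Without the filter, 6 genes of ligand processing and 4 of attenuation and trafficking passed, and the likelihood ratio test also gave 4 for the latter. With exon lengths of GENCODE v44, 7 of the 9 genes kept their rank by Control level, and BTC and ERBB3 changed places. The cause of these differences was not tested.

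Leaving out 1 library at a time gave 281 to 1906 genes higher and 1032 to 2370 lower by adjusted p, and 155 to 348 higher and 791 to 1041 lower by p and fold, with the largest count of higher genes without Control replicate 1. Of the 9 genes, 0 to 1 were then higher and 3 to 5 lower by adjusted p, and 3 lower by p and fold. The pathway lists then had 2 to 5 (ligand processing), 2 to 5 (attenuation), 2 to 19 (adaptors) and 2 to 5 (ERK) genes called. The difference in log2 ratio to EGFR was -0.014 to 0.216 for EREG and -1.371 to -1.093 for BTC. Same-numbered CELF6-OE and Control libraries had deviations correlated at -0.01, -0.02 and -0.07, so no effect shared by replicate number was seen. These values cannot show whether the samples were handled in pairs. With the replicate number as a block, 720 genes were higher and 1570 lower by adjusted p, and 5 of the 9 genes were lower. EGF and NRG4 had at most 40 counts in a library.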
